A study of Mus musculus with 8 samples.

Results

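Neuregulin and ErbB signalling was followed in the mouse cardiac left ventricle through 9 genes, of 22180 genes measured: the ligand genes Nrg1, Nrg4 and Hbegf, the receptor genes Egfr, Erbb2, Erbb3 and Erbb4, the inhibitor gene Errfi1 and the transcription factor gene Etv5. A gene was represented by the probe set with its single symbol, and by the brighter of them where it had several. Of the members, 8 had 1 probe set and Etv5 had 2. They were picked with their values on these same arrays in view, so their levels and differences are given as a description, with no test. Tests are given only for other genes of the pathway.

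The hearts came from C57BL/6 mice aged 3 to 4 months, in 4 reproductive states with 2 arrays each. They were non-pregnant females in diestrus (replicates 2 and 3), which served as the reference, pregnant females at day 12 (replicates 2 and 3) and day 19 (replicates 1 and 2), and females at day 1.5 after birth (replicates 2 and 4). The protocol gives the late group as 18/19 days, and all animals breathed isoflurane before they were killed. Each array held RNA from 1 piece of the ventricle. Values are log2 intensities, so a difference of 1 is a doubling, and they compare a gene with itself across arrays, never one gene with another.

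Neuregulins and heparin-binding EGF are growth factors that share an EGF-like fold and activate the ErbB family of receptor tyrosine kinases. In the heart, neuregulin-1 is made mainly by endothelial cells and acts on ErbB4 of the neighbouring cardiomyocytes, which pairs with ErbB2, a receptor that binds no ligand of its own. The pathway signals through the Ras-ERK and PI3K-Akt routes, and supports cardiomyocyte growth and survival.

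The arrays differed in ways the 4 states do not explain. The cardiomyocyte list varied little in its mean, from 11.91 to 12.12, with 7 of 7 markers above the detection filter. In late pregnancy 0 of these 7 had a higher mean than in the non-pregnant hearts. The count was 1 of 7 at mid-pregnancy and 5 of 7 after birth. Atrial markers differed more: the atrial light chain Myl7 stood at 8.24 in diestrus replicate 3, 10.04 at day 12 replicate 3 and 11.76 at day 19 replicate 1, against 4.56 to 5.12 on the other 5 arrays. Sln, Myl4 and Dkk3 were also higher on those 3 arrays than on the other 5. The remaining 2 atrial markers were not: Bmp10 was high on day 19 replicate 1 alone (8.06). Nppa was highest there (12.66) but lowest on diestrus replicate 3 (11.03) and day 12 replicate 3 (11.13). The endocardial list (Npr3, Plvap, Vwf, Cytl1 and Tmem108) had means of 9.06, 8.44 and 8.75 on those 3 arrays and of 7.39 to 7.95 on the rest. Day 19 replicate 2 stood apart in another way, with a macrophage mean of 9.62, against 8.02 to 8.53 elsewhere, and an interferon response mean of 8.74, against 6.40 to 6.93. Its correlation with the other arrays was 0.969 to 0.977, and 0.980 to 0.992 was found among the other 7. In whole tissue, fewer cells of a type and less RNA per cell cannot be told apart.

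**Figure D1:**
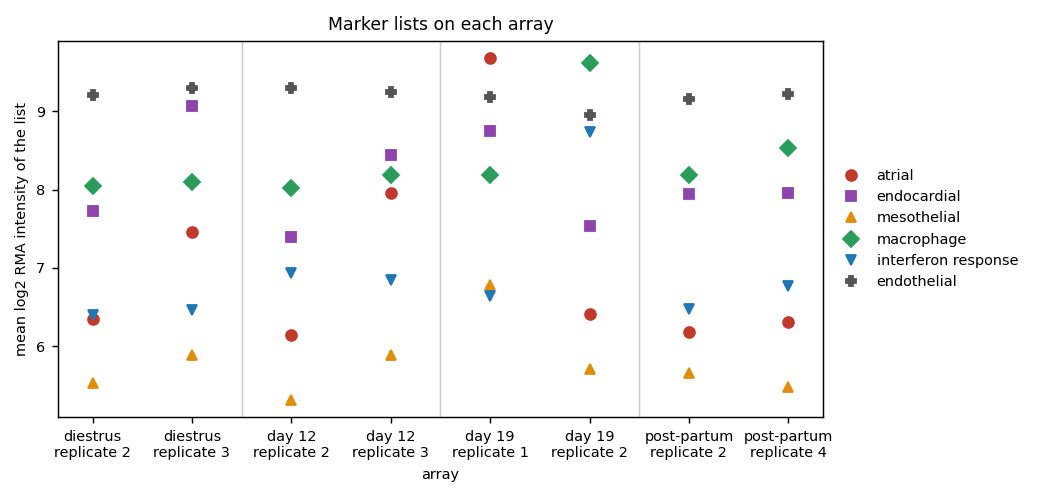
Mean log2 RMA intensity (vertical axis) of 6 marker lists on each of the 8 arrays (horizontal axis), 1 point per list and array. The atrial and endocardial lists are high on diestrus replicate 3, day 12 replicate 3 and day 19 replicate 1, and the macrophage and interferon response lists on day 19 replicate 2, while the endothelial list stays between 8.95 and 9.30.

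Promoter sequence was at hand for 6 of the 9 members. It is shown for Etv5 and Errfi1, which with Nrg1 had the widest differences between states, so that the very different base composition in front of the genes can be seen. The sequences are from RefSeq (GRCm38.p6), cover the 250 bases before the outermost start of each gene, and run 5′ to 3′ on the gene's strand. That of Etv5 is chr16:22439571-22439820 on the minus strand, and that of Errfi1 is chr4:150853546-150853795 on the plus strand. Capitals mark GC boxes, GGGCGG on either strand.
Etv5: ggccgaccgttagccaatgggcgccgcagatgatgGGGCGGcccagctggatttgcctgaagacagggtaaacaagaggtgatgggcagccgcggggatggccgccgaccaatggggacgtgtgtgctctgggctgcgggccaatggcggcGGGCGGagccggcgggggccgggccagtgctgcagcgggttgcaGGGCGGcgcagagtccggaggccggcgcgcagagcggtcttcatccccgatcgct
Errfi1: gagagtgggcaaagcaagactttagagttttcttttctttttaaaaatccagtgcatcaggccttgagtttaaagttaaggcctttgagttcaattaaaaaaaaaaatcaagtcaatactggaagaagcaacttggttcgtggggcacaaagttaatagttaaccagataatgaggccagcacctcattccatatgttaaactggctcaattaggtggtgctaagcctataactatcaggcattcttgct

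The Etv5 window was 71.2% G or C with 27 CpG dinucleotides, and the Errfi1 window 38.0% with 1 CpG, where the median of 32851 promoter windows was 52.4%. The Etv5 window held 3 GC boxes and the Errfi1 window 0, and 32.7% of all windows held at least 1. Both strands were also searched for 3 other motifs. Neither window held CCGGAA, a core bound by ETS factors such as ETV5 itself (12.0% of windows), the AP-1 motif TGANTCA (6.75%) or the cAMP response element TGACGTCA (1.55%). The motifs do not overlap one another in these windows. Each gene has 2 starts in the table, and the inner one was not searched.

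At mid-pregnancy the ligand gene Nrg1 and the transcription factor gene Etv5 were the members that stood lowest against diestrus. Nrg1 was 1.80-fold lower and Etv5 1.71-fold lower, while no receptor differed by more than 0.22 on the log2 scale. At day 19 the Nrg1 arrays overlapped with those of diestrus, and after birth the member with the widest difference was Errfi1, 1.72-fold lower than in diestrus.

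Nrg1 encodes neuregulin-1, the main neuregulin of the heart. Its log2 level was 7.24 and 6.98 in diestrus, 5.99 and 6.53 at day 12, 7.25 and 7.21 at day 19, and 6.77 and 6.63 post-partum. Both day 12 arrays lay below all other arrays, both post-partum arrays lay between those and diestrus, and day 19 overlapped with diestrus.

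Nrg1 averaged 7.11 ± 0.19 (SD, n = 2) in the non-pregnant hearts, 6.26 ± 0.38 at mid-pregnancy, 7.23 ± 0.02 in late pregnancy and 6.70 ± 0.10 after birth. The difference from diestrus was -0.85 ± 0.20 log2 (SE) at day 12, 0.12 ± 0.20 at day 19 and -0.41 ± 0.20 post-partum. From day 12 to day 19 Nrg1 was higher by 0.97 ± 0.20, a 1.96-fold difference, and from day 19 to post-partum lower, at -0.53 ± 0.20. In order of level, day 12, post-partum and diestrus did not overlap with their neighbours, while diestrus and day 19 did. The 4 group means spanned 0.97, and 3.22% of the 13872 genes tested spanned more.

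Since endothelium and endocardium are known sources of neuregulin-1, their markers are given beside it. The endothelial list (8 markers, all 8 above the filter) had means of 9.20 and 9.30 in diestrus, 9.30 and 9.25 at day 12, 9.18 and 8.95 at day 19 and 9.16 and 9.22 post-partum. The endocardial list differed between the 2 day 12 arrays, 7.39 and 8.44, and between the 2 day 19 arrays, 8.75 and 7.54, where the Nrg1 values differed by 0.54 and 0.03. At day 12 the array with the lower endocardial mean also had the lower Nrg1 level, and in diestrus the array with the lower endocardial mean had the higher one. Without the 3 arrays of high Myl7, a choice made after seeing the data, only replicate 2 of day 12 and replicate 2 of diestrus remained. Nrg1 differed by -1.25 between these single arrays.

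The other ligand genes among the members varied less. Nrg4, which encodes a neuregulin that binds ErbB4 and is known from brown fat, stayed between 5.27 and 5.51 on all 8 arrays, close to the detection filter of 5.19. Its group means spanned 0.07, and 98.4% of the genes tested spanned more. Of 7 adipocyte markers, 4 reached the filter. Plin1 (4.87 to 5.74), Cidec (5.12 to 6.34) and Retn (5.32 to 6.97) were each highest on day 19 replicate 1, and Fabp4, which endothelium also expresses, stayed at 11.58 to 12.12. Adipoq, Lep and the brown fat gene Ucp1 did not reach the filter in any state, at 4.64 to 5.28.

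Hbegf encodes heparin-binding EGF, a ligand of both EGFR and ErbB4 that is shed from the cell surface. Its values were 7.40 and 7.64 in diestrus, 7.33 and 7.43 at day 12, 7.93 and 7.36 at day 19, and 7.34 and 7.39 post-partum. The high value was that of day 19 replicate 1 alone, the array on which the atrial and mesothelial lists had their highest means, 9.68 and 6.78, and the part of those cells in it was not tested. The day 19 difference from diestrus was 0.12 ± 0.20, and -0.16 without that array. Post-partum both arrays lay below both diestrus arrays, by a mean of 0.16 (SE 0.20).

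**Figure D2:**
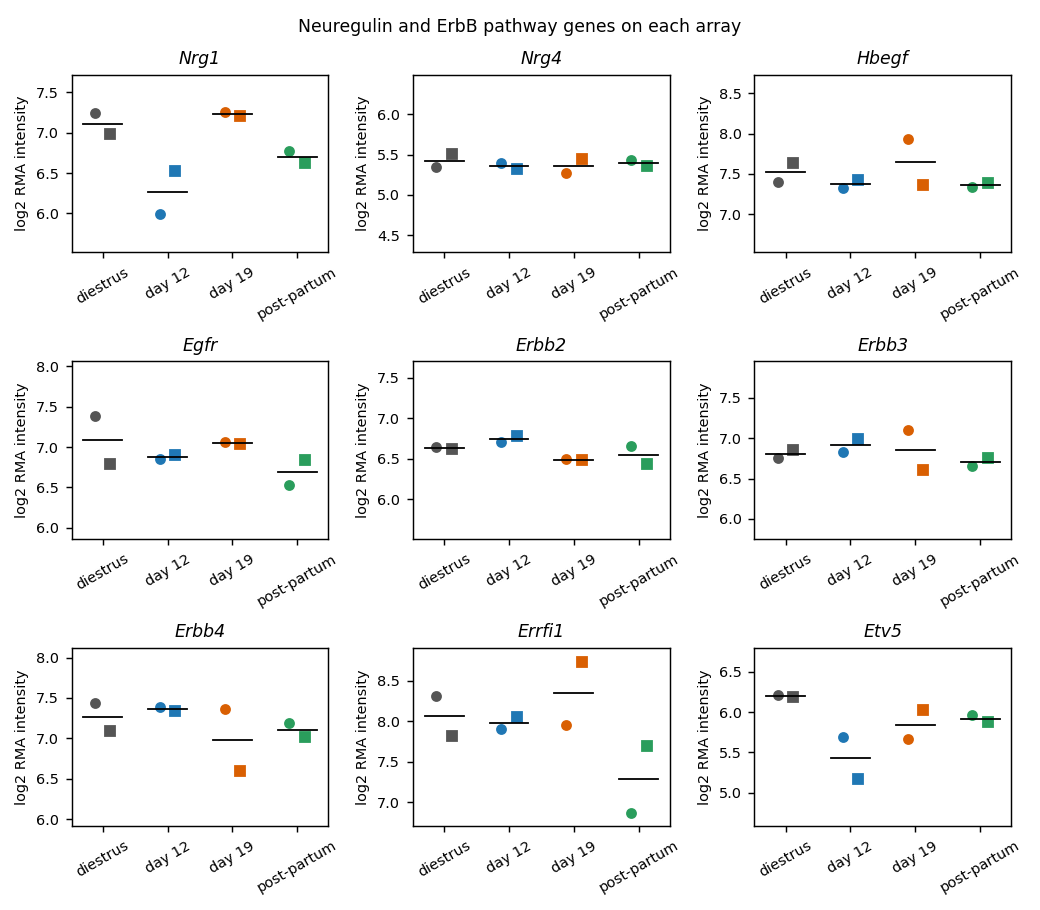
Log2 RMA intensity (vertical axis) of the 9 members on each array, by reproductive state (horizontal axis). Points are single arrays, circle and square the 2 arrays of a state in order of replicate number, and lines are means; all panels span 2.2 log2 units. Nrg1 and Etv5 are lowest at day 12, Errfi1 is lowest post-partum, and the receptor genes vary less between states.

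The receptor genes varied less between states than Nrg1, Errfi1 and Etv5. Erbb2, the co-receptor with no ligand of its own, was the member with the smallest spread within states, an SD of 0.09: 6.64 and 6.62 in diestrus, 6.71 and 6.78 at day 12, 6.50 and 6.48 at day 19, and 6.66 and 6.43 post-partum. The day 12 arrays were above and the day 19 arrays below both diestrus arrays, with differences of 0.12 ± 0.13 and -0.14 ± 0.13. Both are about the size of their standard error in the fit, which pools the spread over the 4 states and over genes.

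Erbb4, the neuregulin receptor of cardiomyocytes, stood at 7.44 and 7.09 in diestrus, 7.39 and 7.34 at day 12, 7.36 and 6.59 at day 19, and 7.19 and 7.02 post-partum. Only day 19 replicate 2 lay outside the range of the diestrus arrays by more than 0.1, and all neighbouring states overlapped. The day 19 difference of -0.29 ± 0.25 rested on that array and was 0.09 without it. Day 19 replicate 2 also had the highest macrophage and interferon response means and the lowest cardiomyocyte mean, 11.91, and their part in the Erbb4 level was not tested.

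Erbb3 encodes a receptor that binds neuregulins but has little kinase activity of its own, and is known from Schwann cells. It ranged from 6.60 to 7.10, both at day 19, on replicates 2 and 1, and every pair of neighbouring states overlapped. Of 6 nerve and Schwann cell markers measured, 4 reached the filter. The mean over all 6, with S100b and Kcna1 below the filter, ranged from 5.14 to 5.45. The Schwann cell gene Cdh19 read 5.89 and 5.96 on the diestrus arrays, against 5.24 and 4.41 on those of day 19. The other 3 that reached the filter moved less, Sox10 between 5.35 and 5.61, Foxd3 between 6.04 and 6.43 and Gfra3 between 5.80 and 6.36, and 2 of the 6 markers had a higher mean at day 19 than in diestrus.

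Egfr, the receptor for EGF and HB-EGF, stood at 7.39 and 6.79 in diestrus, 6.85 and 6.90 at day 12, 7.06 and 7.04 at day 19, and 6.53 and 6.84 post-partum. The gap of 0.60 between the diestrus arrays was wider than any difference between states, so that its direction against diestrus turned at days 12 and 19, to 0.08 and 0.25, without diestrus replicate 2. Post-partum the difference was -0.41 ± 0.21, with overlapping arrays, and was -0.11 without that replicate and -0.71 without diestrus replicate 3. Against day 19 the post-partum arrays did not overlap, with a difference of -0.36 ± 0.21.

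Errfi1 encodes MIG6, a cytosolic inhibitor that binds the kinase domains of EGFR and other ErbB receptors and is itself induced by their signalling. Its level was 8.31 and 7.82 in diestrus, 7.91 and 8.06 at day 12, 7.96 and 8.74 at day 19, and 6.87 and 7.70 post-partum. Both post-partum arrays lay below the 6 others, and replicate 2 lay far below replicate 4. The post-partum difference was -0.78 ± 0.34 against diestrus and -1.07 ± 0.34 against day 19, a 2.10-fold difference.

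The size of the Errfi1 difference depended on single arrays. Without post-partum replicate 2 it was -0.37 against diestrus, and without replicate 4 it was -1.20. Against day 19 it was -0.66 without post-partum replicate 2 and -0.68 without day 19 replicate 2, on which Errfi1 was highest. Day 19 replicate 2 also had the highest macrophage and interferon response means, and their part in the Errfi1 level was not tested. The span of its group means was 1.07, and 2.49% of the genes tested spanned more.

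Etv5 encodes an ETS transcription factor of the PEA3 group, whose transcription is raised by ERK signalling in many cell types. It stood at 6.21 and 6.19 in diestrus, 5.69 and 5.17 at day 12, 5.67 and 6.02 at day 19, and 5.96 and 5.88 post-partum. All 6 arrays of the other states lay below both diestrus arrays, and the lowest was day 12 replicate 3. The differences from diestrus were -0.78 ± 0.20 at day 12, -0.36 ± 0.20 at day 19 and -0.28 ± 0.20 post-partum.

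The dimmer probe set of Etv5 did not show this. It read 4.93 and 4.62 in diestrus, 4.85 and 4.88 at day 12, 4.66 and 4.58 at day 19, and 5.11 and 4.84 post-partum, all below the filter of 5.19. Its day 12 difference was 0.09, and the mean of both probe sets gave -0.34. Without day 12 replicate 3 the brighter probe set gave -0.52, and without replicate 2 -1.03.

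**Figure D3:**
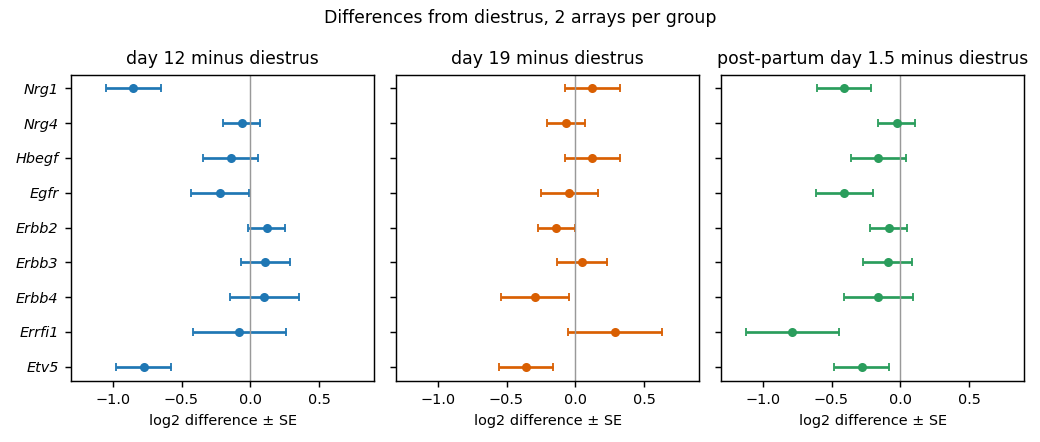
Log2 difference from diestrus (horizontal axis) of the 9 members in the other 3 states, 1 panel each; points are differences of group means with 2 arrays per state, and bars are the moderated standard error of the fit over all 8 arrays. Nrg1 and Etv5 at day 12 and Errfi1 post-partum lie farthest from 0.

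The arrays of each state were also compared for overlap with diestrus, for the members and for all genes tested. At day 12, 2 of the 9 members (Nrg1 and Etv5) lay below diestrus with no overlap, as did 15.6% of the genes tested, and 1 (Erbb2) above, as did 21.7%. At day 19, 2 members (Erbb2 and Etv5) lay below, against 20.4% of genes, and 0 above, against 16.4%. Post-partum 4 members (Nrg1, Hbegf, Errfi1 and Etv5) lay below, against 21.7%, and 0 above, against 21.1%.

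A difference of at least 0.5 in size was rarer. At day 12, 2 members were lower by that much, where 1.01% of genes were, and 0 higher (0.916% of genes). At day 19, 0 members were lower (3.11%) or higher (5.26%) by that much. Post-partum 1 member was lower (3.37%) and 0 were higher (1.91%). Between day 12 and day 19, Nrg1 and Egfr lay higher and Erbb2 lower with no overlap (16.3% and 23.2% of genes), and between day 19 and post-partum Nrg1, Egfr and Errfi1 lay lower (14.3%). By at least 0.5, Nrg1 was higher from day 12 to day 19 (4.75% of genes) and 0 members were lower (2.85%), while Nrg1 and Errfi1 were lower from day 19 to post-partum (5.54%) and 0 higher (2.91%). Since the members were picked on these contrasts, nothing is read from these shares. The comparisons with diestrus share its 2 arrays, as do the 2 successive comparisons those of day 19.

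The genes most like each of the 3 wide-ranging members were sought among 12790 named genes, by the mean absolute difference over the 8 arrays after each gene was centred on its own mean. Nearest to Nrg1 were Pdgfc, a platelet-derived growth factor, at 0.17 and Sqle, an enzyme of cholesterol synthesis, at 0.18. Pdgfc stood at 6.79 and 6.78 in diestrus, 5.97 and 6.59 at day 12, 6.84 and 6.73 at day 19, and 6.32 and 6.31 post-partum. Like Nrg1, it was lowest on day 12 replicate 2 and between the extremes post-partum. Sqle was below the detection filter at day 12 (4.82 and 5.02) and post-partum (5.03 and 5.03), so its likeness to Nrg1 there rests on values under it.

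Nearest to Errfi1 were Cyria at 0.13, Tnip3 at 0.14 and the copper transporter gene Slc31a2 at 0.15. Cyria ranged from 7.22 on post-partum replicate 2 to 8.72 on day 19 replicate 2, the same 2 arrays that bounded Errfi1. Those arrays also bounded Tnip3 (5.54 and 7.81) and Slc31a2 (8.41 and 9.86). Nearest to Etv5 were Sh3gl2, which acts in endocytosis, at 0.10, the potassium channel gene Kcnh6 at 0.10 and the olfactory receptor gene Olfr38 at 0.12. Each of these was lowest on day 12 replicate 3. On the day 12 arrays Kcnh6 (4.93 and 4.73) and Olfr38 (5.01 and 4.78) were below the detection filter. On day 19 replicate 1 both were too (5.11 and 5.15), as was Olfr38 on post-partum replicate 2 (4.95). Their highest values, 5.48 and 5.53, were close to it. Their likeness to Etv5 thus rests on values under or near the filter, while Sh3gl2 (8.81 and 8.56 at day 12) was well above. All genes share the normalization of the arrays and the differences between arrays described above.

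The rest of the pathway was read from a list of 81 further genes, of which 72 had a probe set of their own and 68 reached the filter. In limma, 0 of the 68 passed an adjusted p of 0.05 in any of the 5 comparisons, and 0% of all genes tested did. At an unadjusted p under 0.05 there were 0 higher and 4 lower at day 12 against diestrus, 2 and 3 at day 19, and 3 and 1 post-partum. All genes gave 2.31%, 7.29% and 6.62% in those comparisons. From day 12 to day 19 there were 7 higher and 1 lower (all genes 6.47%), and from day 19 to post-partum 4 higher and 3 lower (8.25%).

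At day 12, 43 of the 68 genes were lower than in diestrus and 25 higher, with a median of -0.03, where 55.1% of all genes were higher and their median was 0.02. Of 11 measured targets of ERK signalling 10 were tested: Etv1, Egr1, Fos, Jun, Myc, Ccnd1, Phlda1, Ier3, Elk3 and Elk1. The Dusp and Spry genes were counted with the negative regulators instead. The 10 targets had the lowest median, -0.17, with 8 lower. That median was -0.07 without diestrus replicate 3 and -0.25 without diestrus replicate 2. On the same arrays 0 of 7 fibroblast markers had a higher mean at day 12 than in diestrus (list means 9.25 and 9.47, against 9.49 and 9.67) and 7 of 7 interferon response genes did (6.93 and 6.85, against 6.40 and 6.46), and their part in the target levels was not tested. The 20 negative regulators had 13 lower and a median of -0.05, and the 9 genes of the PI3K-Akt route 5 higher and a median of 0.03. The genes lower at an unadjusted p under 0.05 were Phlda1, Dusp5, Nrg2 and Etv1, each with an adjusted p of 0.99992 in limma.

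Etv1 is a close relative of Etv5, and also belongs to the PEA3 group. It stood at 7.79 and 7.65 in diestrus, 7.41 and 6.91 at day 12, 7.29 and 7.09 at day 19, and 7.06 and 7.64 post-partum. As with Etv5, all 6 arrays of the other states were below both diestrus arrays, though post-partum replicate 4 only narrowly (7.64 against 7.65). The day 12 difference was -0.56 ± 0.24, and its other probe set gave -0.11. Etv4, the remaining gene of that group, did not reach the filter, at 4.67 to 5.34.

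Phlda1 and Dusp5, both induced by ERK signalling, had a low point at day 12. Phlda1 stood at 7.05 and 6.34 in diestrus, 6.04 and 5.84 at day 12, 6.47 and 6.54 at day 19, and 6.90 and 6.87 post-partum, a day 12 difference of -0.75 ± 0.22. Dusp5, a nuclear phosphatase of ERK, stood at 7.26 and 6.85, 6.66 and 6.66, 7.12 and 7.18, and 7.03 and 7.17 in the same order, a difference of -0.39 ± 0.16. In both genes the day 12 arrays were below the 6 others.

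Other feedback genes of the ERK route lay closer to diestrus at day 12, a difference between genes that was not tested. Dusp6, the cytosolic ERK phosphatase, gave -0.05 ± 0.17 at day 12, Spry2 -0.05 ± 0.19 and Spry4 -0.17 ± 0.23. Dusp6 and Spry4 also had their lowest mean at day 12, but 1 of the 2 arrays lay among those of the other states. Dusp6 was highest at day 19, with 8.30 and 8.54 against 8.17 and 7.98 in diestrus. Its dimmer probe set, at 3.55 to 4.17, gave -0.05 at day 12 and -0.12 at day 19.

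Of the ligand genes outside the members, 5 of 7 reached the filter. Nrg2, a neuregulin, stood at 6.15 and 6.12 in diestrus, 5.81 and 5.84 at day 12, 6.12 and 6.20 at day 19, and 6.23 and 6.01 post-partum. Its day 12 arrays lay below all others, as with Nrg1, and its difference from diestrus was -0.31 ± 0.13. Nrg3 was below the filter, at 4.14 to 4.52.

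Among the proteases that shed these ligands from the cell surface, Adam17, which cleaves HB-EGF and neuregulins, stayed between 7.84 and 8.25. Adam19, which can cleave neuregulin, ranged from 6.98 to 8.28, and both ends of that range were diestrus arrays. Post-partum Adam12, a sheddase of HB-EGF, stood at 6.21 and 5.92 against 5.66 and 5.62 in diestrus (0.43 ± 0.15, limma adjusted p = 0.722).

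**Figure D4:**
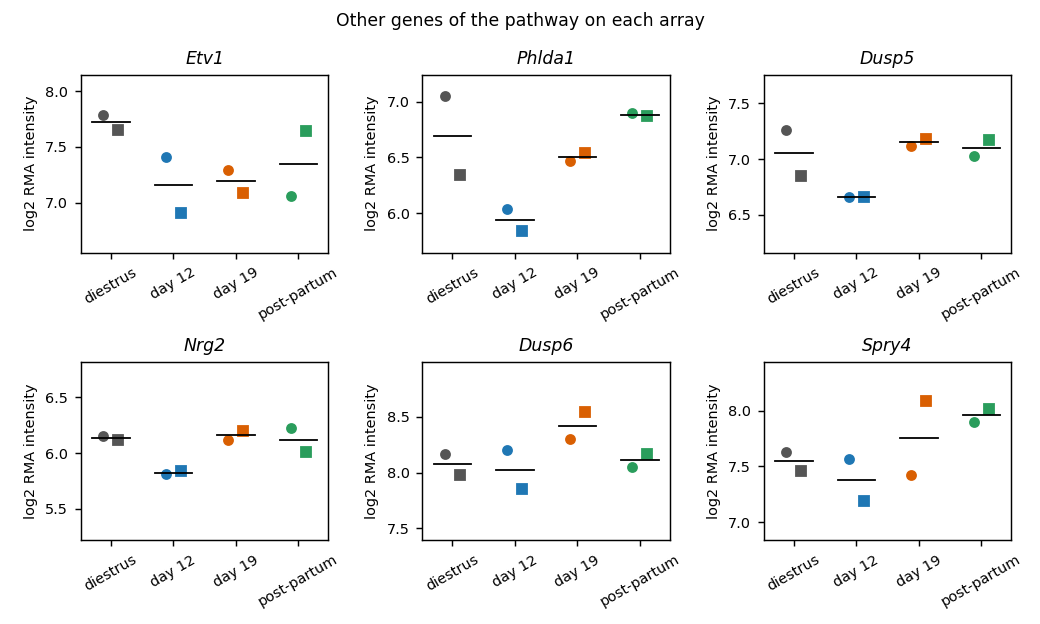
Log2 RMA intensity (vertical axis) of 6 further genes of the pathway on each array, by state (horizontal axis). Points are single arrays, circle and square the 2 arrays of a state in order of replicate number, and lines are means; all panels span 1.6 log2 units. Phlda1, Dusp5 and Nrg2 are lowest at day 12, Etv1 is highest in diestrus, and Dusp6 and Spry4 have no low point that both day 12 arrays share.

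At day 19, 6 of the 10 tested ERK targets were above diestrus and 4 below, with a median of 0.20 (all genes -0.03). Among the 6 was Fos, which passed the filter only through its day 19 mean. The median rested on day 19 replicate 2, the array with the high macrophage and interferon response means, whose part in it was not tested. Without that array 4 targets were higher and 6 lower with a median of -0.0050, and without day 19 replicate 1 the median was 0.39. Myc, a growth-promoting transcription factor, stood at 6.89 and 7.18 against 6.38 and 6.49 (limma adjusted p = 0.657).

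From day 12 to day 19, 8 of the 10 targets, Fos among them, were higher with a median of 0.39. All genes had a median of -0.04, and without day 19 replicate 2 that of the targets was 0.21 with 7 higher. Myc differed by 0.63 ± 0.16 (limma adjusted p = 0.675). The immediate-early gene Fos stood at 4.71 and 5.49 in diestrus, 4.79 and 4.75 at day 12, 5.90 and 5.90 at day 19, and 5.13 and 4.90 post-partum. Only its day 19 mean reached the detection filter, so it was tested because it was high there, and its levels are given without a test. Fos enters the counts and medians of targets and the counts of pathway genes. Medians without it are not given, so nothing is read from the day 19 medians of the targets against those of all genes.

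Lower genes at day 19 included Spry1, an inhibitor of receptor tyrosine kinase signalling, at 7.98 and 7.20 against 8.49 and 8.18 in diestrus. The catalytic subunit gene Pik3cb (-0.34 ± 0.13) and Rasa1, a GTPase-activating protein of Ras (-0.38 ± 0.14), were lower on both day 19 arrays. The adjusted p of each was 0.657 in limma. Without day 19 replicate 1, so that replicate 2 with its high immune means stood alone, Spry1 (-1.13, adjusted p = 0.00839) and Myc (0.75, adjusted p = 0.0331) passed against diestrus in limma, with the lone array assumed to vary like the others. In that fit 2 of 69 pathway genes passed, where 9.27% of the 14140 genes tested did, so the pathway's share was below that of all genes. It also gave Spry1 and Myc at day 19 against day 12 (9.72% of all genes) and Spry1 post-partum against day 19 (6.57%).

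Post-partum, Ccnd1, the cyclin D1 gene, stood at 9.62 and 9.71 against 8.98 and 9.21 in diestrus, a difference of 0.57 ± 0.17. Akt1, the kinase below PI3K, stood at 10.42 and 10.23 against 9.84 and 9.98, and on both arrays was above the 6 others. The adaptor gene Nck1 was lower, at 7.54 and 7.40 against 7.75 and 7.86. None of the 3 passed (limma adjusted p = 0.722 for each). The sets of 9 sheddases and inhibitors and of 10 adaptors had medians of 0.004 and -0.13 post-partum.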

How the data were processed

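Per the submitters' processing notes, the authors made the deposited log2 values with RMA in Affymetrix Expression Console, which corrects background, equalises arrays and summarises probe sets. The sources used here name no version, setting or genome build. The equalisation hides changes in total RNA. Total RNA input was 100 ng. The table held 34365 probe sets with values from 1.37 to 13.32. A platform table gave 1 symbol for 23521 probe sets, several for 1814 and none for the rest.

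The probe set with the highest mean stood for each of 22180 genes. The 13872 genes with a group mean at or above 5.19, the median of all values, were tested. A model with 1 mean per state was fitted to 8 arrays with limma 3.58.1 in R 4.3.3, with two-sided tests and Benjamini-Hochberg adjustment over all genes tested. It was also run on simulated data with independent noise. Those data held none of the differences between arrays described above, so that run does not bear on them. Standard errors are moderated, with a median of 0.17. Precision is limited by how few arrays there are. The labels do not say which animals the samples came from, so the p-values cover only the spread among the samples, which may be technical.

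Members, lists and the rule for named genes were chosen with earlier results of these data known. The rule took all members, 8 pathway genes set beforehand, per state up to 3 further pathway genes in each direction by unadjusted p, and the 3 genes most like each member whose group means spanned at least 0.5. Of these like genes, 1 is not reported here. Alternatives covered weights, variance model, filters, probe sets, centring, the groups fitted, a replicate block and each array left out.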

Additional observations from a re-analysis of the deposited data

Results flagged for a closer look

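Only the members and the named pathway genes were searched here. Genes are given when both arrays of one state lay above both diestrus arrays and both arrays of another state lay below them. In a single comparison with diestrus, 15.6% to 21.7% of all genes tested lay on a given side with no overlap. The share with opposite sides in different states was not counted, so nothing is read from the genes listed. Erbb2 was above diestrus at day 12 and below it at day 19, and the 2 differences were -0.26 log2 apart (day 19 minus day 12), a difference that was not tested. Lrig1, which encodes an inhibitor of ErbB receptors, was below diestrus at day 12 and day 19 and above it post-partum. Its post-partum difference was 0.28 above that of day 12, which was not tested, and 0.39 above that of day 19 (limma adjusted p = 0.589). Nck1 was above diestrus at day 12 and below it post-partum, -0.51 apart, which was not tested.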

How the results depend on the processing

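The count of pathway genes past the threshold was 0 in all 5 comparisons under each alternative except 1: without day 19 replicate 1 it was 2 at day 19 against diestrus (Spry1 and Myc), 2 at day 19 against day 12 and 1 post-partum against day 19, of 69 tested, where 9.27%, 9.72% and 6.57% of 14140 genes passed. Thus with each array left out the counts ranged from 0 to 2, 0 to 2 and 0 to 1. The Nrg1 difference at day 12 ranged from -1.12 to -0.58 with each array left out, and that of Etv5 from -1.03 to -0.52. Without the 3 arrays of high Myl7, only replicate 2 of day 12 and replicate 2 of diestrus remained. Between these single arrays Nrg1 differed by -1.25 and Etv5 by -0.53. Over all arrays the mean of the Etv5 probe sets gave -0.34. Of 45 member differences, 24 turned under at least 1 alternative, and the 6 of at least 0.5 in size under none. In those 6 the arrays of the compared states did not overlap, so leaving out an array could not turn them. Weights, variance model and filters left the differences unchanged. Nothing is thus read from their kept direction. The dimmer Etv5 probe set taken alone, which was not among the alternatives, gave 0.09 at day 12. With the replicate number as a block, which only diestrus and day 12 share in full, 0 pathway genes passed at day 12, Nrg1 gave -0.85 with an SE of 0.19, and 29 of 13321 genes passed against 0 of 13321 in the fit of the same 2 states without it. The pair differences of those states correlated at 0.22 over genes, and the labels do not say that a number pairs animals. With 2 arrays per state, differences several times the typical SE of 0.17 did not pass, such as that of Myc from day 12 to day 19 (0.63 ± 0.16), and 0 of 13872 genes passed in any comparison over all arrays.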
